A study of Mus musculus with 10 samples.

Results

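Olig1, Olig2, Pax6, Sox9, Nfib, Hes1 and Hes5 encode 7 transcription factors of neural stem cells, and their RNA levels were followed through 5 mouse cell populations. The genes were chosen by symbol, and every probe that the platform annotation pairs with those symbols was taken, with probes of the same gene kept apart. This gave 8 of the 25697 probes on the array and 7 of its 16593 named genes. Hes5 had 2 probes, ILMN_1253414 (called probe 1) and ILMN_2624153 (called probe 2), and each other gene had 1. RNA was measured on 10 single-colour Illumina BeadChip arrays, 2 for each population.

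The piPS-2F cells were parthenogenetic pluripotent cells induced from neural stem cells by overexpression of Oct4 and Klf4. The pESC-B cells were a parthenogenetic embryonic stem cell population sorted for the surface antigen SSEA-1, and the fESC cells came from a female embryonic stem cell line labelled OG2. The pNSC cells were parthenogenetic neural stem cells and the fNSC cells were female neural stem cells. Parthenogenetic cells descend from an egg that developed without fertilisation, so piPS-2F, pESC-B and pNSC share the lack of a paternal genome. The labels do not describe how the cells were grown, 1 label of the piPS-2F replicate 2 array names Klf5, and the titles of the fESC arrays carry an added B. Nothing in the labels says that the 2 arrays of a population came from separate cultures, so the p-values measure the spread between arrays that may be technical repeats.

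Olig1 and Olig2 are basic helix-loop-helix factors that lie side by side in the genome and direct oligodendrocyte and motor neuron fates in the neural tube, and Olig2 is also widely found in cultured neural stem cells. Hes1 and Hes5 are repressors switched on by Notch signalling, in which ligands of the Delta and Jagged families on a neighbouring cell cause the Notch receptor to be cut, so that its inner part joins the DNA-binding protein RBPJ and turns on Hes genes, which hold back neuronal differentiation. Sox9 and Nfib act in the step from neural stem cells to glia, and Pax6 marks radial glia of the dorsal forebrain.

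Between 9938 and 11837 probes were detected per array (detection p below 0.01), which is 38.7% to 46.1% of all probes, and the 2 arrays of a population correlated with r between 0.988 and 0.995. Mean intensity was 287 to 327 on the piPS-2F and pESC-B arrays and 476 to 625 on the fESC, pNSC and fNSC arrays, so brightness and population cannot be told apart in comparisons across that divide. The labels were checked with marker lists. Of 17 probes for pluripotency genes, 14 were detected on both arrays of piPS-2F, 14 on both of pESC-B and 16 on both of fESC, against 1 on both of pNSC and 1 on both of fNSC. Of 26 probes for other neural stem cell genes, 7, 5 and 5 were detected on both arrays of piPS-2F, pESC-B and fESC, against 16 of pNSC and 15 of fNSC. Among the probes called below, the share that was higher moved with the scaling of the arrays. The share was 51.1% in piPS-2F against pNSC, and 32.2% when only array medians were matched in place of whole distributions. The 2 shares were 50.4% and 34.6% in pESC-B against pNSC, 49.9% and 39.9% in fESC against fNSC, 49.0% and 35.6% in piPS-2F against pESC-B, and 47.8% and 27.2% in piPS-2F against fESC. In pESC-B against fESC they were 49.6% and 40.3%, and in pNSC against fNSC 43.4% and 50.6%.

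RNA of most of these factors was far lower in the pluripotent populations than in the neural ones. Olig1, Olig2, Sox9, Nfib and Hes5 fell in piPS-2F and pESC-B against pNSC and in fESC against fNSC, Hes1 differed by less than 2-fold, and Pax6 was not detected anywhere. A probe was called where the Benjamini-Hochberg adjusted p of limma's moderated test was below 0.05 and the log2 difference was at least 1, which is 2-fold. In each of these 3 comparisons 6 of the 7 member probes that entered the test were called lower and 0 higher. Of the 13564 probes tested, 25.7% were called lower and 26.8% higher in piPS-2F against pNSC, 24.7% and 25.1% in pESC-B against pNSC, and 23.6% and 23.5% in fESC against fNSC. The test kept probes detected on both arrays of at least 1 population. The probes of Olig2, Sox9 and Hes5 passed that filter only through the neural arrays, so a lower value elsewhere was built into their entry, and nothing is read from these counts. In the gene lists below, probes that passed only through neural arrays likewise had to be lower elsewhere, and list counts stand beside these shares of all probes. The comparisons of piPS-2F and of pESC-B share the pNSC arrays. In bulk RNA, fewer cells with a transcript and less of it per cell cannot be told apart.

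**Figure D1:**
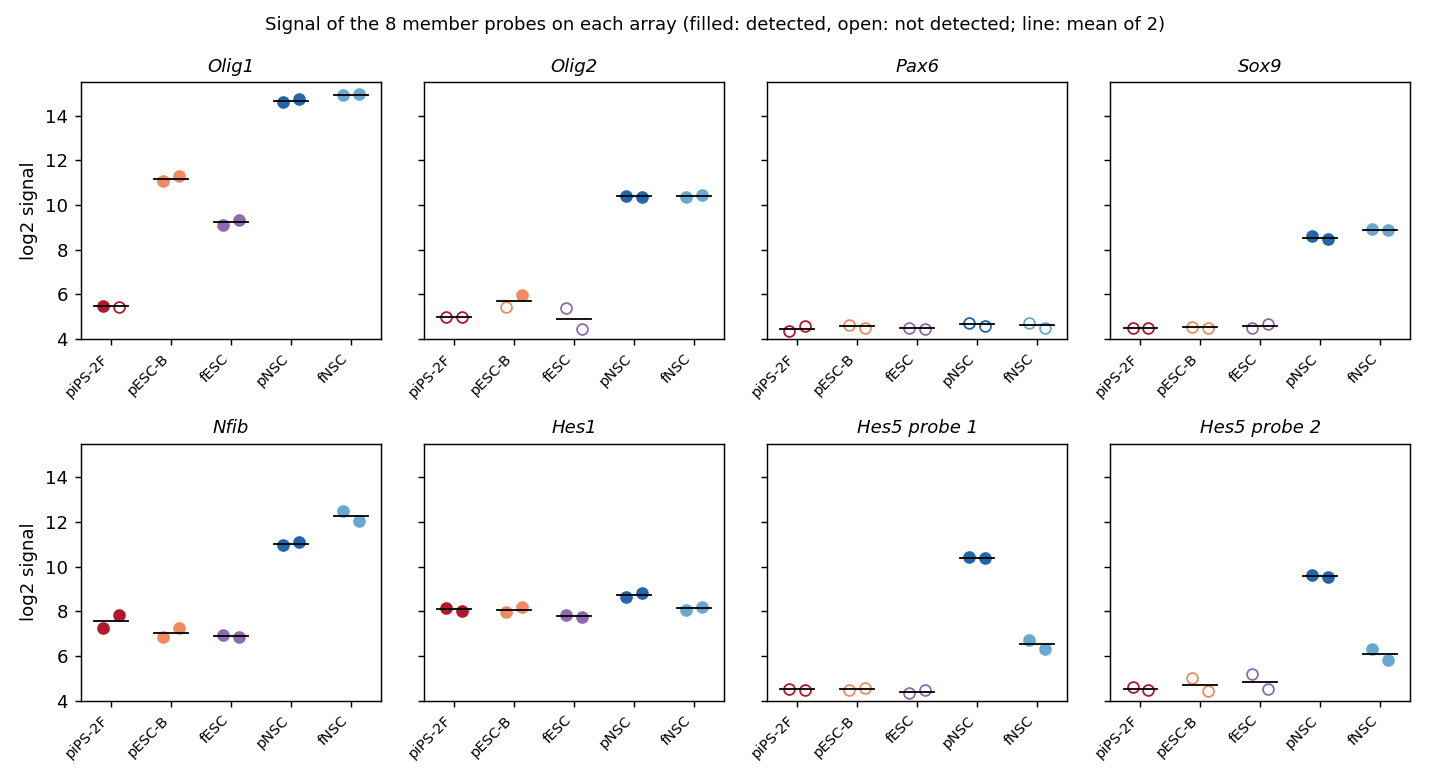
Log2 signal of the 8 member probes on each array of piPS-2F, pESC-B, fESC, pNSC and fNSC, with filled points detected (p below 0.01), open points not detected and a line at the mean of the 2 arrays. Olig1 stands at 11.18 in pESC-B and 9.22 in fESC, between the neural populations and piPS-2F, while Olig2, Sox9 and both Hes5 probes sit near the floor in the pluripotent populations.

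Olig1 gave signal in both embryonic stem cell populations. The Olig1 probe (ILMN_2760105, chromosome 16) read 13.5 and 13.4 intensity units in piPS-2F, 1608 and 1683 in pESC-B and 521 and 578 in fESC, against 29090 and 30939 in pNSC and 33264 and 35194 in fNSC. No 2 populations overlapped, and the probe was detected on every array except 1 of the 2 piPS-2F arrays. Mean log2 signal was 5.48 ± 0.04 in piPS-2F, 11.18 ± 0.16 in pESC-B and 9.22 ± 0.15 in fESC, against 14.68 ± 0.11 in pNSC and 14.95 ± 0.06 in fNSC (SD, n = 2 each). From the top, the order was fNSC, pNSC, pESC-B, fESC and piPS-2F, and all neighbours in it were called different except the top pair: Olig1 in pNSC minus fNSC was -0.27 ± 0.14 (log2, SE, adjusted p = 0.19). The brightest probe on any array read between 31554 and 42800, so Olig1 in the neural cells was measured near the upper end of the scale.

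Olig1 was lower in all 3 pluripotent populations than in the neural ones, by unequal amounts. The log2 difference was -9.20 ± 0.14 in piPS-2F against pNSC (SE, adjusted p = 8.2e-11), -3.50 in pESC-B against pNSC (adjusted p = 1.2e-08) and -5.73 in fESC against fNSC (adjusted p = 5.6e-10). Among the pluripotent populations Olig1 was 52.0-fold lower in piPS-2F than in pESC-B (log2 -5.70 ± 0.14, adjusted p = 1.6e-08) and 13.4-fold lower in piPS-2F than it was in fESC (-3.75, adjusted p = 1.2e-07). These folds rest on a piPS-2F level at the detection limit, with detection p-values of 0.0088 and 0.0113. With the authors' processed values they were 92.9-fold and 22.1-fold, and with an offset of 50 they were 29.9-fold and 8.04-fold. Against pNSC the log2 difference was -10.21 and -8.39 under these settings. Olig1 was 3.87-fold higher in pESC-B than in fESC (1.95, adjusted p = 3.2e-06). Olig1 was the only member probe called in any of these 3 comparisons, where 9.12%, 24.9% and 27.4% of all probes were called in either direction in piPS-2F over pESC-B, piPS-2F over fESC and pESC-B over fESC. The probes of Sox9 and Hes5 were undetected on all pluripotent arrays and that of Olig2 on all but 1. They could hardly be called there, so nothing is read from this count.

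Markers of other cells were set beside the Olig1 signal of the embryonic lines. The summed intensity of 26 neural stem cell marker probes was 1395 to 1648 in piPS-2F, 1281 to 1480 in pESC-B and 1870 to 1984 in fESC, against 63443 to 64160 in pNSC and 51774 to 58187 in fNSC. Sums are not scaled for array brightness, which was lower in piPS-2F and pESC-B than in fESC. On the normalised scale the median difference of this list in pESC-B against fESC was -0.03, and 0.08 when array medians were matched. Of its 16 tested probes 1, for the matrix protein Tnc, rose in piPS-2F relative to pESC-B and 0 fell, and none was called when array medians were matched, while 4 rose and 1 fell with the authors' processed values. The 1 that fell was of Nes (-1.75, limma adjusted p = 0.013). In piPS-2F against fESC, 2 rose and 1 fell with those values, again Nes (-1.48, adjusted p = 0.011). Nes was not called in either comparison as reported, and was chosen after its values were seen. Between pESC-B and fESC, 1 probe was higher in pESC-B, for the glutamate transporter Slc1a3 (2.37 ± 0.15, adjusted p = 1.1e-06), and 2 probes of Tnc were lower (these genes were chosen after their values were seen). The lipid-binding protein Fabp7 and the membrane protein Gpm6a, taken for their size of change, were at least 71.3-fold and at least 108-fold lower in piPS-2F than in pNSC. Here and below "at least" marks a population with no detected array, whose level is set to the lowest detected signal or, where higher, the probe's own.

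Oligodendrocyte lineage markers gave far less signal in the pluripotent populations than in the neural ones, apart from Mbp. The 14 probes of 9 such genes summed to 131 to 160 in piPS-2F, 179 to 205 in pESC-B and 177 to 221 in fESC, against 4531 to 4677 in pNSC and 1099 to 1284 in fNSC. Of 8 tested probes, 5, 7 and 4 were lower in piPS-2F against pNSC, pESC-B against pNSC and fESC against fNSC, and 1 was higher in each, a probe of the myelin protein Mbp (at least 3.44-fold, 4.79-fold and 1.57-fold, chosen after its values were seen). Over all tested probes 25.7%, 24.7% and 23.6% were called lower in these comparisons. Probes that passed the filter only through neural arrays had to be lower, and nothing is read from these counts. Nkx2-2, a homeobox factor of the ventral neural tube and of oligodendrocyte precursors, was not detected on any pluripotent array and was at least 21.1-fold lower in piPS-2F than in pNSC. Pdgfra, the growth factor receptor of oligodendrocyte precursors, was detected on 1 piPS-2F array and on no array of pESC-B or fESC. Markers of feeder fibroblasts summed to 3951 to 5365 in piPS-2F, 2055 to 2480 in pESC-B and 7391 to 8493 in fESC. Astrocyte markers summed to 4632 to 4963 in piPS-2F, 10224 to 11630 in pESC-B and 5164 to 5277 in fESC. This is the order of Olig1, but the sums are not scaled for array brightness. On the normalised scale the median of this list in piPS-2F against fESC went the other way, at 0.18, and 0.32 when array medians were matched. In both cases 0 probes were called. Of 12 tested astrocyte probes, the only one called between pESC-B and fESC was that of the gap junction protein Gja1, higher in pESC-B by 1.74 (adjusted p = 5.5e-06) and lower in piPS-2F than in pESC-B by -1.16 (adjusted p = 0.00028; chosen after its values were seen), while the astrocyte water channel Aqp4 was not detected on any pluripotent array. The part of any other cell type in the Olig1 signal was not tested.

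Olig2 was close to the floor in the embryonic lines, where its neighbour was detected. The Olig2 probe (ILMN_2724709, chromosome 16) read 7.35 and 7.73 in piPS-2F, 14.8 and 21.8 in pESC-B and 26.9 and -6.49 in fESC, against 2064 and 2003 in pNSC and 1629 and 1492 in fNSC. Of the 6 pluripotent arrays 1, of pESC-B, passed the detection threshold, and no pluripotent array came near a neural one. Olig2 was at least 30.6-fold lower in piPS-2F than in pNSC (adjusted p = 3.7e-08) and at least 22.2-fold lower in fESC than in fNSC (adjusted p = 3.6e-08). In pESC-B against pNSC it was lower by a log2 difference of -4.68 ± 0.27 (SE, adjusted p = 1.1e-07), where Olig1 differed by -3.50. In fESC against fNSC the log2 difference of Olig2 was -5.47, near the -5.73 of Olig1. The Olig2 probe was far dimmer than the Olig1 probe in the neural cells. Whether the lack of Olig2 signal in fESC reflects that lower starting level was not tested.

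Between the neural populations no Olig2 difference was called (pNSC minus fNSC 0.01 ± 0.27 on the log2 scale, SE, adjusted p = 0.98). Among the pluripotent populations no Olig2 difference was called: the value was -0.74 for piPS-2F over pESC-B (adjusted p = 0.067) and 0.80 in pESC-B against fESC (adjusted p = 0.026, below 2-fold). The last of these was called when pESC-B replicate 1 or fESC replicate 1 was left out, at 1.06 and 1.26, and rested on signals at the detection limit.

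The promoter of Olig2 is shown because its probe read close to the floor in all pluripotent cells. The probe of Olig1, its neighbour, was clearly detected in pESC-B and fESC, but was also the brighter of the pair in neural cells. RefSeq's promoter table for GRCm38.p6 held windows for 3 of the 7 members, Olig2, Hes5 and Pax6, and the 250 bases before the start were searched on both strands for 5 short motifs: GTGGGAA (RBPJ), AACAAT (Sox proteins), CACNAG (the N box of Hes repressors), TTGGC (NFI proteins) and CANNTG (the E box of helix-loop-helix factors). The Olig2 window, chr16:91225300-91225549 on the plus strand, held 1 match to AACAAT, on the minus strand at bases 67 to 62 before the start, printed in capitals, and 2 matches to TTGGC. Of 32851 promoters, 9.42% held AACAAT and 41.5% held TTGGC. The window was 66.8% G and C with 22 CpG pairs, where the median promoter had 52.4% and 6. The letters are a description of the window and not a binding site.
Olig2: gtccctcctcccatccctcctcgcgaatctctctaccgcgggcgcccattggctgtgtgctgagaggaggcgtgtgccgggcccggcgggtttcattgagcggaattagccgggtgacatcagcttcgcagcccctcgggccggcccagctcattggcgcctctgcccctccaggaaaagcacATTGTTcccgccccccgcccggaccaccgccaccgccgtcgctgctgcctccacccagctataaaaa

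Of the 6 nearest genes with a tested probe around Olig2 and Olig1, Paxbp1 and 1 of 3 probes of Ifngr2 were called between pluripotent populations. In RefSeq order Olig2 and Olig1 stand on chromosome 16 with a single long noncoding gene, Gm52261, between them, which has no probe. The nearest 3 genes with a tested probe on either side were Mis18a, Eva1c and Paxbp1 before Olig2 and Ifnar2, Il10rb and Ifngr2 after Olig1. None of their 9 probes was called between piPS-2F and pESC-B, with log2 differences between -0.36 (Il10rb) and 0.69 (a probe of Ifnar2). Between pESC-B and fESC, the probe of Paxbp1, a Pax-binding protein, was 2.45-fold higher in pESC-B (adjusted p = 0.00025). Of the 3 probes of Ifngr2, a chain of the interferon gamma receptor, 1 was lower in pESC-B (-4.38, adjusted p = 1.3e-07) and the other two differed by -0.47 and -0.38, not called. In piPS-2F against fESC the same Ifngr2 probe was lower by -3.88 (adjusted p = 2.9e-07) and Paxbp1 was higher by 1.60 (adjusted p = 7.3e-05), with the other 7 probes not called. Olig1 differed by -3.75 there. In pESC-B against fESC Olig1 differed by 1.95 where this Ifngr2 probe differed by -4.38. In piPS-2F against pESC-B the values were -5.70 for Olig1 and 0.50 for this probe. Eva1c, a membrane protein, was not detected on any pluripotent array and was at least 3.52-fold lower in piPS-2F than in pNSC. With the authors' processed values Eva1c was called higher than in fESC, in piPS-2F (1.69) and pESC-B (1.78). The other Ifngr2 probes were then called lower than in fESC, both in piPS-2F (-1.54 and -1.41) and 1 in pESC-B (-1.19). These probes were undetected on all pluripotent arrays.

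**Figure D2:**
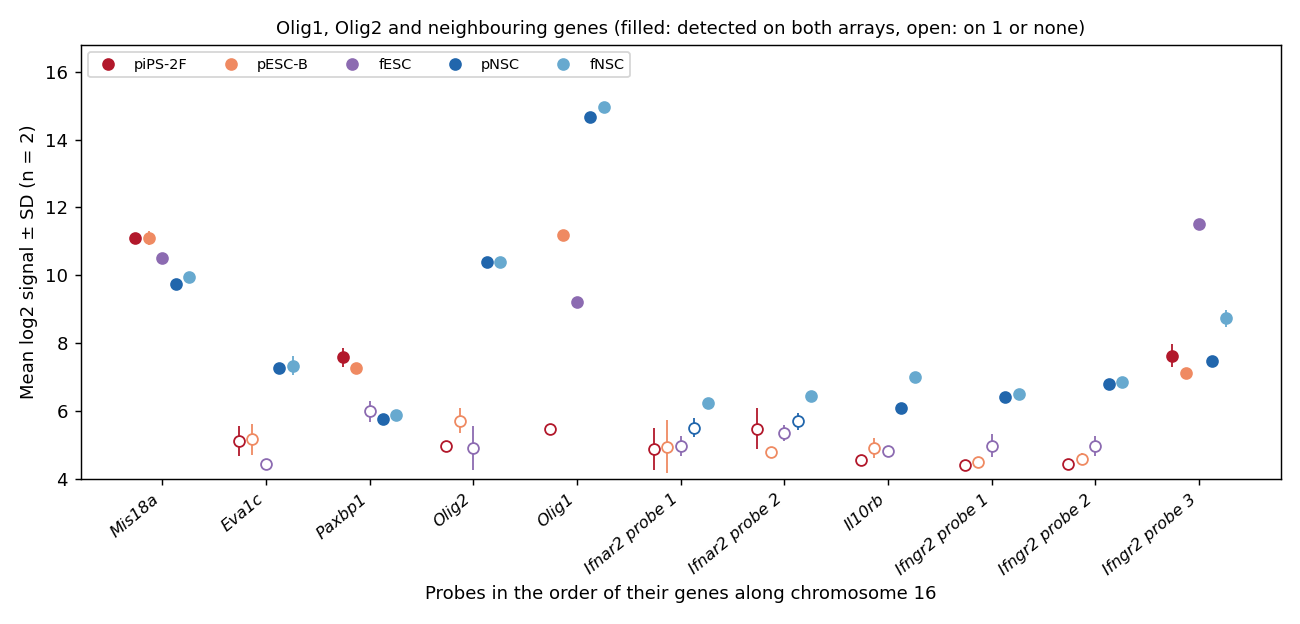
Mean log2 signal ± SD (n = 2 arrays) in the 5 populations of the probes of 8 genes in order along chromosome 16, with filled points detected on both arrays. Olig1 spreads over all populations, with 5.48 in piPS-2F against 14.95 in fNSC, while Olig2 splits into neural and pluripotent levels and Mis18a stays above 9.75 throughout.

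Sox9, a factor of the SoxE group that is needed for the start of gliogenesis, was detected on the neural arrays alone. Its probe (ILMN_3007428, chromosome 11) read -1.38 and -0.778 in piPS-2F, 0.171 and -1.09 in pESC-B and -2.93 and 4.51 in fESC, against 639 and 583 in pNSC and 648 and 535 in fNSC. No pluripotent array passed the detection threshold, and all 4 neural arrays did. Sox9 was at least 8.43-fold lower in piPS-2F than in pNSC (adjusted p = 2.4e-09), at least 8.08-fold lower in pESC-B than in pNSC (adjusted p = 2.5e-09) and at least 7.96-fold lower in fESC than in fNSC (adjusted p = 1.6e-09). The neural populations differed by -0.37 ± 0.13 in pNSC against fNSC (log2, SE, adjusted p = 0.056), and no order can be given to undetected levels.

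Most tested probes of other Sox genes fell too. Of 14 tested probes of 8 genes, 10 fell and 0 rose in piPS-2F relative to pNSC, with a median log2 difference of -2.28. As for the members, probes detected only in neural cells, such as those of Sox5 and Sox8, had to be lower. In pESC-B against pNSC 10 were lower and 1 higher, and in fESC against fNSC also 10 and 1, the higher probe being that of Sox13 both times, though not called in pESC-B when array medians were matched. Sox5 and Sox8 act with Sox9 in glia. Sox8 was at least 26.7-fold lower in piPS-2F than in pNSC, and of the 4 tested Sox5 probes 1 was at least 20.6-fold lower (ILMN_2631143), the others being at least 5.18-fold lower, at least 2.16-fold lower and not called. Sox2, which serves both pluripotent and neural stem cells, had 2 probes that disagreed, at -3.13 (adjusted p = 6.9e-08) and 0.54 (not called) in piPS-2F against pNSC (chosen after their values were seen). Between pNSC and fNSC only Sox3 was called, higher in pNSC (1.04, adjusted p = 0.0065).

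Pax6 could not be compared. Its probe (ILMN_2612187, chromosome 2) lay between -7.15 and 9.78 on the 10 arrays and passed the detection threshold on none of them, in neural or pluripotent cells. This says that the probe gave no signal above background, with 1 probe and no second measure of the gene. Of 16 tested probes for other homeobox factors of the neural tube, 10 fell and 3 rose in piPS-2F relative to pNSC, with a median of -1.64, and all 3 higher ones were of Tgif1, a repressor of TGF-beta signalling (4.0 and 3.46 on the log2 scale and at least 3.65-fold, the last 2 chosen after their values were seen).

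Nfib, which drives glial differentiation and the maturation of neural progenitors, kept a detected level everywhere. Its probe (ILMN_2726585, chromosome 4) read 63.0 and 104 in piPS-2F, 54.7 and 66.8 in pESC-B and 98.7 and 87.2 in fESC, against 2918 and 3129 in pNSC and 6587 and 4434 in fNSC. The neural arrays were all far above the pluripotent ones, and both fNSC arrays were above both pNSC arrays. Nfib was lower by a log2 difference of -3.47 ± 0.23 in piPS-2F against pNSC (SE, adjusted p = 2.6e-07), -3.98 in pESC-B against pNSC (adjusted p = 1.1e-07) and -5.37 in fESC against fNSC (adjusted p = 1.3e-08). It was also lower in pNSC than in fNSC (-1.24, adjusted p = 0.0025). Among the pluripotent populations Nfib differed by 0.52 in piPS-2F against pESC-B (adjusted p = 0.12), 0.67 in piPS-2F against fESC (adjusted p = 0.028, below 2-fold) and 0.15 in pESC-B against fESC (adjusted p = 0.59).

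Nfix and Nfic, the other NFI genes with a tested probe, gave 5 probes, and the probe of Nfia was not detected in either array of any population. Of the 5, 2 were lower in piPS-2F against pNSC, 3 in pESC-B against pNSC and all 5 in fESC against fNSC, with 0 higher. Nfix, which restrains stem cell proliferation, had 2 probes, lower in piPS-2F than in pNSC by -5.35 (adjusted p = 5.3e-10) and at least 1.40-fold. Between pNSC and fNSC, 2 probes of Nfic were lower in pNSC, at least 4.04-fold and at least 1.94-fold (chosen after their values were seen), the same direction as Nfib.

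**Figure D3:**
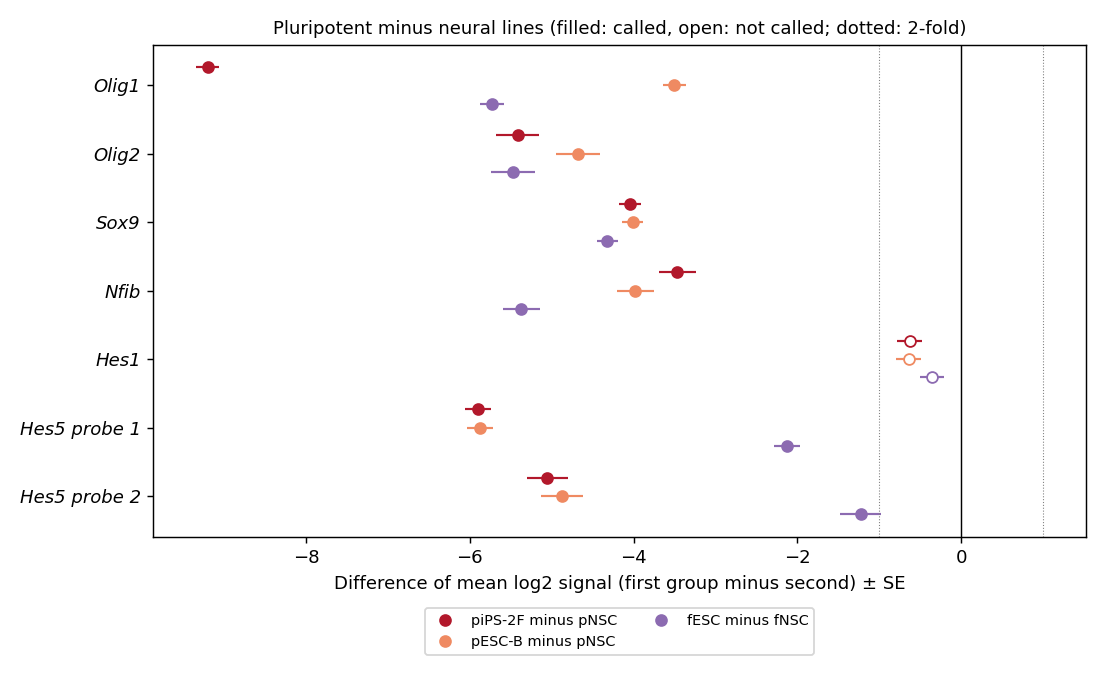
Log2 difference ± SE of the 7 tested member probes in piPS-2F minus pNSC, pESC-B minus pNSC and fESC minus fNSC, with filled points called and dotted lines at 2-fold. Every probe lies below 0, from -9.20 for Olig1 in piPS-2F to -0.36 for Hes1 in fESC, and Hes1 alone is uncalled.

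Hes1 was detected in every population and differed between pluripotent and neural cells by less than 2-fold. Its probe (ILMN_1247691, chromosome 16) read 133 and 119 in piPS-2F, 139 and 149 in pESC-B and 194 and 171 in fESC, against 646 and 732 in pNSC and 351 and 342 in fNSC. All 10 arrays were detected, and in intensity the pNSC arrays stood above the rest. After quantile normalisation the mean log2 signal was 8.08 in piPS-2F, 8.07 in pESC-B and 7.77 in fESC, against 8.71 in pNSC and 8.13 in fNSC. The log2 difference was -0.63 ± 0.15 in piPS-2F against pNSC (SE, adjusted p = 0.0029), -0.64 in pESC-B against pNSC (adjusted p = 0.0027), -0.36 in fESC against fNSC (adjusted p = 0.05) and 0.59 in pNSC against fNSC (adjusted p = 0.014), all below 2-fold and so not called.

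The Hes1 result depended on the scaling. When only the array medians were matched, the difference was -1.46 in piPS-2F against pNSC (adjusted p = 1.2e-06) and -1.3 in pESC-B against pNSC (adjusted p = 4.3e-06), both called. Under that scaling the median of all probes moved to -0.46 and -0.35 in those comparisons, and relative to it Hes1 stood at -1.0 and -0.95. In order of log2 level as reported, pNSC and fNSC were the only neighbours more than 0.5 apart, and no neighbours were called different.

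Hes5 separated the neural populations from each other as well as from the pluripotent cells. Probe 1 (chromosome 4) read -0.30 and -2.09 in piPS-2F, -2.01 and 0.146 in pESC-B and -16.8 and -5.46 in fESC, against 2084 and 1974 in pNSC and 130 and 83.4 in fNSC. Probe 2 read 1.62 and -2.10 in piPS-2F, 8.19 and -3.27 in pESC-B and 21 and -2.84 in fESC, against 1239 and 1163 in pNSC and 90.8 and 52.0 in fNSC. On both probes every pluripotent array was undetected, every neural array was detected, and the pNSC arrays stood far above the fNSC arrays.

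In pNSC against fNSC, Hes5 was 14.6-fold higher by probe 1 (log2 3.87 ± 0.16, SE, adjusted p = 1.6e-07) and 11.5-fold higher by probe 2 (3.52 ± 0.25, adjusted p = 7e-06). With Nfib lower, these were the 3 of 7 member probes called in that comparison, where 4.79% of all probes were called higher and 6.24% lower. In piPS-2F against pNSC Hes5 was lower at least 30.5-fold by probe 1 (adjusted p = 7.4e-10) and at least 17.4-fold by probe 2 (adjusted p = 4e-08), and in pESC-B against pNSC at least 29.2-fold and at least 16.7-fold.

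In fESC against fNSC the bounds on Hes5 were small because fNSC was itself dim, at least 1.53-fold lower by probe 1 (log2 -2.12 ± 0.16, adjusted p = 7.1e-07) and at least 1.11-fold lower by probe 2 (-1.23 ± 0.25, adjusted p = 0.0013). The probe 2 call was lost without fNSC replicate 1 (-0.99) and without fESC replicate 2 (-0.90), and with an offset of 50 (-0.69) or no background correction (-0.88). Over the 10 arrays the centred log2 values of the 2 probes differed by a root mean square of 0.51.

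The promoter of Hes5 is shown because Hes5 is a direct target of Notch and its RNA was far apart between the neural populations. Its window, chr4:154960673-154960922 on the plus strand (RefSeq, GRCm38.p6), held 2 matches to the RBPJ letters GTGGGAA, printed in capitals, on the minus strand at bases 226 to 220 and on the plus strand at bases 83 to 77 before the start. At least 1 match was found in 1779 of 32851 promoters (5.42%) and 2 or more in 53 (0.161%). The window was 71.6% G and C with 32 CpG pairs. It also held 2 matches to TTGGC and 1 to CANNTG, which 66.2% of promoters hold, and none to AACAAT or to CACNAG, which 36.7% hold. As for Olig2, the letters describe the window and are not a binding site. The window is reference sequence and the same for both neural populations, and a part of Notch in their Hes5 difference was not tested.
Hes5: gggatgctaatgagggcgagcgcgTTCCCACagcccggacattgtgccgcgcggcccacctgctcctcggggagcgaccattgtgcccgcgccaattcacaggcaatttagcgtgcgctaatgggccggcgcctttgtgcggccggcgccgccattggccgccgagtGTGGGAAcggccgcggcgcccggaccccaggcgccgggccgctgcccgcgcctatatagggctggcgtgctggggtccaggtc

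**Figure D4:**
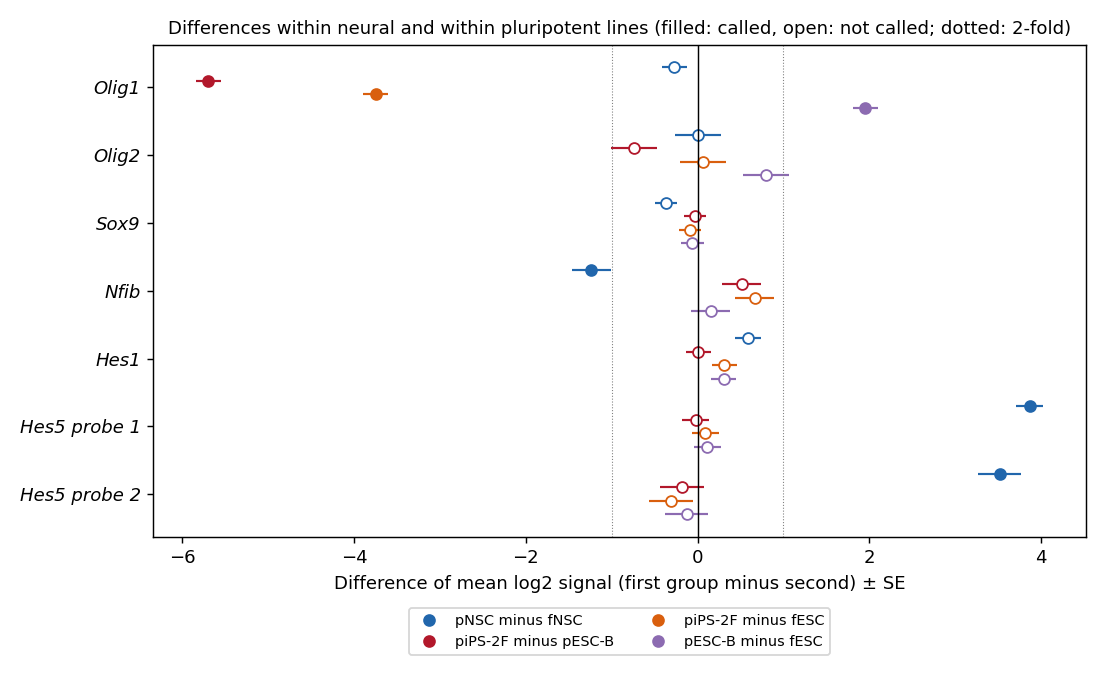
Log2 difference ± SE of the 7 tested member probes in pNSC minus fNSC, piPS-2F minus pESC-B, piPS-2F minus fESC and pESC-B minus fESC, with filled points called and dotted lines at 2-fold. Both Hes5 probes (3.87 and 3.52) and Nfib (-1.24) are called between the neural populations, and Olig1 is the only called probe between pluripotent populations.

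Notch ligands and receptors moved in both directions. Of 8 tested probes, each of another gene, 3 rose and 4 fell in piPS-2F relative to pNSC, 3 and 3 in pESC-B against pNSC and 2 and 3 in fESC against fNSC, and the median in piPS-2F against pNSC was -0.95. The receptor Notch1 was lower in piPS-2F than in pNSC by -4.29 ± 0.24 (adjusted p = 8e-08), while Notch4, the receptor known from endothelium, was higher by 4.34 ± 0.14 (adjusted p = 2.7e-09). The other called ones, chosen after their values were seen, were the lower receptor Notch3 (-1.53) and ligands Dll1 (-3.15) and Dll3 (at least 5.23-fold), and the higher ligands Dlk1 (at least 1.93-fold) and Jag2 (at least 1.75-fold).

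Between the neural populations the Notch ligands were also divided. Dll1 and Dll3, Delta family members made by cells turning into neurons, were higher in pNSC than in fNSC (1.48 ± 0.15, adjusted p = 7.4e-05, and 1.33 ± 0.26, adjusted p = 0.0038). Notch1 was lower in pNSC (-1.15 ± 0.24, adjusted p = 0.0048) and so was the ligand Jag1, at least 3.16-fold (adjusted p = 0.00083). Notch1 was not called when array medians were matched (-0.98), nor Dll3 with the authors' processed values (adjusted p = 0.095). Dll1, Dll3 and Jag1 were chosen after their values were seen.

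Enzymes, coactivators and modifiers of Notch gave mixed changes. Of 20 tested probes, 3 rose and 6 fell in piPS-2F relative to pNSC (median -0.43), led by Lfng, which adds sugars to Notch and was at least 4.95-fold lower, and Maml2, a coactivator of the RBPJ complex, at least 3.22-fold lower. Between pNSC and fNSC 1 was higher, Mfng (2.06), which acts on the same sugars as Lfng, and 1 lower, Maml2 (-1.16).

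Of 13 tested probes for other Hes and Hey genes and their Tle corepressors, 3 rose and 5 fell in piPS-2F relative to pNSC. Hey1, another Notch target, was lower by -3.60 ± 0.14 (adjusted p = 6.7e-09), and Tle4 was higher by 2.18 (adjusted p = 4e-06). The other called probes were 3 of Hes6 (-2.15, -1.80 and -1.26) and 1 of Tle2 (-1.47), lower, and 1 each of Tle4 (1.16) and Tle1 (1.03), higher, all chosen after their values were seen. The median of this list, 0.35, turned to -0.37 when only array medians were matched, with 1 higher and 5 lower, since the smaller Tle4 value and Tle1 were then not called (0.91 and 0.19). Hey1 differed by 0.22 ± 0.14 in pNSC against fNSC (adjusted p = 0.25), beside the large Hes5 difference there, and the 2 probes called lower in pNSC were both of Tle4 (-1.10 and -1.01, the second not called under either other scaling; chosen after their values were seen). In pESC-B against fESC 6 probes of the list were higher and 0 lower. They were the probe of Hey1 (1.37), 3 of Hes6, a relative that opposes Hes1 (1.29, 1.54 and 1.89), and 2 of the corepressor Tle3 (at least 1.65-fold and at least 1.45-fold, the second not called when array medians were matched). Hes6 and Tle3 were chosen after their values were seen. In piPS-2F against fESC 5 probes of the list were higher and 0 lower, and 0 were called in piPS-2F against pESC-B. Over all tested probes 27.4% were called in either direction in pESC-B against fESC, 24.9% in piPS-2F against fESC and 9.12% in piPS-2F against pESC-B.

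Some factors that act against or with the Hes and Olig proteins were lower in piPS-2F than in pNSC as well. Of 9 tested probes of proneural, E protein and Id genes, 6 fell and 1 rose in piPS-2F relative to pNSC (median -2.72), and Tcf12 and Tcf4, E proteins that pair with helix-loop-helix factors such as Olig2, were lower by -4.01 and -3.35. The higher one was Neurog3, a proneural factor, at least 2.21-fold higher (adjusted p = 2.8e-06; chosen after its values were seen). Over all tested probes 25.7% were called lower and 26.8% higher there, and probes that passed the filter only through neural arrays had to be lower. Between pNSC and fNSC 3 probes were lower, of Id2 (-1.80 and -1.65) and Tcf12 (-1.15), and 0 were higher. Over all tested probes 6.24% were lower and 4.79% higher in that comparison. Of 5 tested probes of the Hedgehog pathway, which induces Olig2 in the ventral neural tube, 3 fell in piPS-2F relative to pNSC, all of the signal transducer Smo, led by a probe at -2.53 ± 0.25 (adjusted p = 5.9e-06), and 1 was higher, of the inhibitor Sufu (at least 1.80-fold, adjusted p = 0.00099; chosen after its values were seen), which was not called when array medians were matched (0.84). Between pNSC and fNSC 0 of the 5 were called.

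Whether the members changed alike in matched comparisons was tested directly. Olig1, Nfib and both Hes5 probes, 4 of the 7 tested probes, were called different between the change of piPS-2F over pNSC and that of fESC over fNSC, where 28.5% of all probes did. The same 4 probes differed between the gap of pESC-B over fESC and that of pNSC over fNSC, where 29.7% of all probes did. As Hes5 was undetected in every pluripotent population, its values here restate its difference between pNSC and fNSC. Nfib was likewise called between pNSC and fNSC but not between any pluripotent populations. Olig2, Sox9 and Hes1 were not called in either test.

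**Figure D5:**
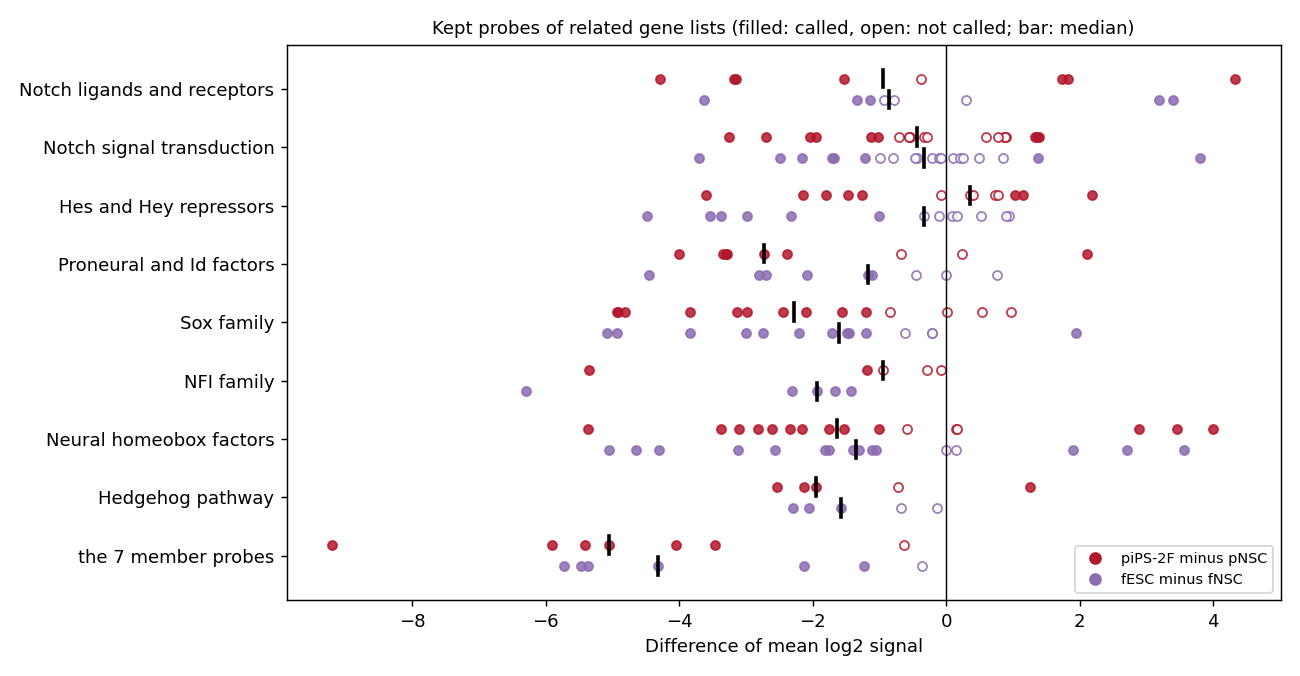
Log2 differences of the tested probes of 8 pathway and family lists and of the 7 member probes in piPS-2F minus pNSC and fESC minus fNSC, with filled points called and a bar at each list's median. The median in piPS-2F minus pNSC is -2.28 for other Sox genes and -0.95 for Notch ligands and receptors, and probes that entered the test only through neural arrays had to lie low.

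Astrocyte and neuron markers were examined beside Hes5 and Nfib, since these populations may hold differentiated cells. Of 12 tested astrocyte probes 5 were higher and 3 lower in pNSC than in fNSC. The water channel Aqp4 was higher in pNSC by 3.09 ± 0.14 (adjusted p = 3.2e-07), as were Fgfr3 (1.62), S100b (1.09) and 2 probes of Slc1a2 (1.27 and 1.28). The 3 lower probes were all of the folate enzyme Aldh1l1 (-1.38, -1.58 and -1.39, the last not called with the authors' processed values), and apart from Aqp4 these genes were chosen after their values were seen. Of 7 tested neuron probes 1 was higher in pNSC, the RNA-binding protein Elavl3 (at least 3.24-fold, chosen after its values were seen), and 0 lower. Of the 8 oligodendrocyte probes 4 were higher in pNSC and 0 lower, Pdgfra by 2.88 (adjusted p = 3.8e-05), Nkx2-2 by 1.16 and 1.00 with its 2 probes, and the receptor Gpr17 at least 8.94-fold (the dimmer Nkx2-2 probe was not called with the authors' processed values; it and Gpr17 were chosen after their values were seen). Feeder fibroblast markers summed to 2569 to 2685 in pNSC and 304 to 433 in fNSC. The part of these cells in the Hes5 and Nfib differences was not tested.

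The members did not share a single profile when the size of change was counted. After each probe's mean was removed, the root mean square difference over the 10 arrays was smallest between Sox9 and Nfib (0.44), then Olig2 and Sox9 (0.64) and Olig2 and Nfib (0.71). Olig1 stood farther off, at 1.74 from Olig2, and Olig1 and Hes1 were farthest apart (3.38). Probes were centred but not scaled, so these values count the size of change as well as its shape. In piPS-2F against pNSC that size was largest for Olig1 (-9.20) and smallest for Hes1 (-0.63). These are descriptions over 10 arrays of 5 populations that share the division into neural and pluripotent cells.

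The same measure was taken over tested probes of other named genes, without clone-type symbols such as those ending in Rik. The gene most like Olig1 was Dner, a neuronal transmembrane protein that can bind Notch, at 1.24. Its mean log2 signal was 5.36 in piPS-2F, 8.02 in pESC-B and 6.15 in fESC, against 11.45 in pNSC and 11.73 in fNSC. This is the order of Olig1, which the search for likeness favours. Trib2 and Lrrn1 followed at 1.55 each. Values were smaller for the other members. A probe that changes little, such as that of Hes1, finds small values more easily by this measure. The nearest were Ppp1r3c, Sybu and Hmgn3 for Olig2 (0.21, 0.24 and 0.28), Syn2, Ppargc1a and Smpdl3a for Sox9 (0.12, 0.13 and 0.17), and 2 probes of Rtn1 and 1 of Kcnmb4 for Nfib (0.19, 0.27 and 0.27). For Hes1 they were Nap1l4, Cox5b and Skiv2l (0.11, 0.12 and 0.13), and for Hes5 probe 1 they were Glycam1, Aqp4 and Plppr5 (0.17, 0.30 and 0.33). Glycam1 averaged 4.81 in piPS-2F, 4.47 in pESC-B and 4.65 in fESC, against 10.46 in pNSC and 6.68 in fNSC, the same order of neural populations as Hes5. Genes picked for likeness over the same arrays tend to share such orders, so nothing further is read from them.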

How the data were processed

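Total RNA was amplified, labelled with biotin and hybridised, per the labels' protocols. The deposited table gives a probe intensity and a detection p-value per array, as the authors' scanner software wrote them. A table of the authors' processed values, read here as log2, served as an alternative. The submitters' processing notes name BeadStudio 3.2, RMA and lumi, without their roles, and a genome build for the probes was not given in the sources used here. Symbols came from the platform annotation, and 23978 probes have one.

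From the intensities, neqc in limma 3.58.1 (R 4.3.3) corrected background by detection p-value, added 16 to each value, quantile normalised and took log2, so differences of dim probes are understated. The 13564 probes detected (p below 0.01) on both arrays of at least 1 population were fitted with 5 population means over 10 arrays, giving 5 residual and 4.89 prior degrees of freedom. Comparisons numbered 7, with 3 more used only for the order of levels, and 2 differences of differences. Precision is limited by the number of arrays, which may be technical repeats, and for dim probes by the detection limit. The method was tested on simulated data.

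Members and 14 gene lists (167 genes) were chosen with earlier results of these data known. Named beside the members were the 2 called probes of each list with the largest difference in piPS-2F against pNSC and arrays that did not overlap, the 3 probes most like each member, and the nearest 3 tested genes on each side of Olig2 and Olig1. The search for like probes left out probes without a symbol or with a clone-type symbol. Same-numbered arrays were not paired: correlations of their deviations lay between -0.104 and 0.0986 over 10 pairs of populations. The alternatives tried were 9 processing or fitting choices and leaving out each of 10 arrays.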

Additional observations from a re-analysis of the deposited data

Results flagged for a closer look

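Among the members, 4 probes changed by unequal amounts in 2 tests of a difference between differences, where limma's adjusted p was below 0.05 and the size at least 1 on the log2 scale. The change of piPS-2F against pNSC was set against that of fESC against fNSC. Olig1 was called at -3.47 ± 0.20 (SE, adjusted p = 3.4e-06), a larger drop in piPS-2F. Hes5 was called at -3.78 by probe 1 (adjusted p = 3.4e-06) and -3.83 by probe 2 (adjusted p = 4e-05), with both pluripotent populations undetected, so these values restate the difference between pNSC and fNSC. Nfib was called at 1.91 (adjusted p = 0.0011), a smaller drop in piPS-2F. Much of this is the Nfib difference between pNSC and fNSC (-1.24, called), as piPS-2F and fESC differed by 0.67, not called.

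The difference of pESC-B and fESC was also set against that of pNSC and fNSC. Olig1 was called at 2.23 (adjusted p = 2.9e-05), since it was higher in pESC-B than in fESC but not called between pNSC and fNSC. Hes5 was called at -3.76 by probe 1 (adjusted p = 2.8e-06) and -3.65 by probe 2 (adjusted p = 4.4e-05), and Nfib at 1.39 (adjusted p = 0.0056). The Nfib value mostly restates its difference between pNSC and fNSC, as pESC-B and fESC differed by 0.15, not called. Olig2 (0.05 and 0.79), Sox9 (0.28 and 0.31) and Hes1 (-0.27 and -0.28) were called in neither test. No population has enough arrays to look for a single array far from its fellows.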

How the results depend on the processing

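The member differences were recomputed under 9 processing or fitting alternatives (522 values) and with 1 array left out (630 values). Of these 518 and 625 kept their side of the threshold. No called difference changed sign, while 20 uncalled ones did, 6 under processing alternatives and 14 with an array left out. The exceptions were Hes5 probe 2 in fESC against fNSC, lost at -0.69 with an offset of 50, -0.88 with no background correction, -0.99 without fNSC replicate 1 and -0.90 without fESC replicate 2, Hes1 under median scaling (-1.46 in piPS-2F and -1.3 in pESC-B against pNSC), and Olig2, called in pESC-B against fESC at 1.06 without pESC-B replicate 1 and 1.26 without fESC replicate 1, and at 1.25 without fESC replicate 1 in the second difference of differences. The causes were not tested.

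Counts of called probes moved most with the filter. Keeping only probes detected on all arrays left 7650 probes and 2 members, Hes1 and Nfib, by construction. Called members were then 1 in each of piPS-2F against pNSC, pESC-B against pNSC, fESC against fNSC and pNSC against fNSC, 0 in each comparison of pluripotent populations and 1 in each difference of differences. Over all probes 3619, 3444, 3141 and 531 were called in the first 4 of these, and 411, 1602 and 1814 in piPS-2F against pESC-B, piPS-2F against fESC and pESC-B against fESC. As reported these 7 counts were 7130, 6761, 6395, 1497, 1237, 3375 and 3720. With an offset of 50, 933 were called in pNSC against fNSC, 660 in piPS-2F against pESC-B and 2242 in piPS-2F against fESC, and with no background correction 776 in piPS-2F against pESC-B.

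With 1 array left out, called members stayed at 6 in piPS-2F and in pESC-B against pNSC, ran from 5 to 6 in fESC against fNSC, stayed at 3 in pNSC against fNSC and at 1 in piPS-2F against pESC-B and against fESC, ran from 1 to 2 in pESC-B against fESC, and were 4 and 4 to 5 in the differences of differences. The counts over all probes ran from 7126 to 7184, 6740 to 6786, 6360 to 6473, 1422 to 1540, 1224 to 1378, 3370 to 3498 and 3715 to 3876 in the same order of 7 comparisons. The arrays share only a replicate number, and a fit with it as a replicate block called 7129, 6761, 6395, 1496, 1235, 3375 and 3720 probes and 6, 6, 6, 3, 1, 1 and 1 members. A block with the replicate numbers of fNSC alone swapped, chosen after seeing the data, called 3 members and 1495 probes in pNSC against fNSC. Where both populations lie at the background, as Sox9 and Hes5 do in the pluripotent cells, no difference is detectable at these intensities.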
